A study of Mus musculus with 21 samples.

Results

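Transcripts of 36 cell cycle genes were followed in mouse tuft cells from 5 tissues and in the small intestinal epithelium from which tuft cells had been removed. The genes were chosen by symbol and fall into a replication set of 16 and a mitosis set of 20; all 36 were found among the 43432 gene identifiers of the count files. The replication set holds Mcm2, Mcm3, Mcm4, Mcm5, Mcm6, Mcm7, Gins2, Cdc45, Cdt1, Cdc6, Pcna, Rrm1, Rrm2, Tyms, Ccne1 and Ccne2. The mitosis set holds Mki67, Top2a, Ccna2, Ccnb1, Ccnb2, Cdk1, Plk1, Aurka, Aurkb, Birc5, Bub1, Bub1b, Cenpe, Cenpf, Kif11, Kif20a, Tpx2, Nusap1, Cdc20 and Ube2c.

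All animals were naive and of the strain C57BL6.Il25(Flare25/Flare25), which carries a fluorescent reporter at both copies of Il25, a cytokine gene of tuft cells. Live epithelial cells (DAPI-, CD45-, EPCAM+) were sorted as reporter-positive tuft cells or, from the small intestine, as reporter-negative epithelium, called non-tuft here. The control group therefore carried the same alleles, and no reporter-negative group from the other tissues was part of the comparison. There were 3 libraries each of non-tuft epithelium, small intestine tuft and gall bladder tuft cells, and 4 each of colon, thymus and trachea tuft cells. Outside the trachea each library came from 1 male mouse aged 12 weeks. Trachea libraries were pools of 4 mice aged 12 to 16 weeks, of which pools 3 and 4 were female. Sorted cells per library numbered 52000 to 57000 for non-tuft, 35000 to 36000 for small intestine tuft, 13500 to 16000 for colon, 1750 to 2700 for gall bladder, 1350 to 1900 for thymus and 130 to 453 for trachea. Tissue, dissociation, cell number and, for the trachea, age, sex and pooling differ together between tissues and cannot be told apart. The summed level of 13 tuft cell markers was 225 to 445 CPM (read counts relative to the library total) in non-tuft libraries and 5064 to 33759 in tuft libraries, and each marker was higher in tuft cells of every tissue than in non-tuft cells by the test used below.

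A dividing cell first licenses its replication origins and copies its DNA, and later separates the copies on a spindle. Origin licensing loads the Mcm2-7 helicase with the help of Cdc6 and Cdt1; Cdc45 and the GINS complex then switch the helicase on, cyclin E drives entry into replication, Pcna clamps the polymerase to DNA, and ribonucleotide reductase (Rrm1, Rrm2) and thymidylate synthase (Tyms) supply nucleotides. Transcripts of the later phase encode cyclins A and B and their kinase Cdk1, spindle kinases and motors, checkpoint proteins, and the ubiquitin ligase parts that end mitosis. In the intestine, stem cells and their progeny divide in the crypts, and tuft cells are usually described as differentiated cells that have left the cycle. In RNA from a sorted population, fewer cells in cycle and less RNA per cell cannot be told apart.

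Levels are CPM scaled by TMM factors, which correct for differences in RNA composition, and are given as mean ± SD over the libraries of a group. Library totals ran from 25739248 to 73574745 counts, so that 1 count was worth less than 0.04 CPM before scaling. Small levels rest on few counts, and amplified reads without molecular identifiers are not independent molecules. Changes are log2 fold changes ± SE from edgeR's quasi-likelihood test with p-values adjusted by Benjamini-Hochberg over all genes tested. A gene is said to be higher or lower, to rise or to fall, where the adjusted p was under 0.05 and the change at least 2-fold.

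The mitosis transcripts separated intestinal from other tuft cells more widely than the replication transcripts did. The summed level of the 16 replication genes was 566, 551 and 628 CPM in the non-tuft libraries (582 ± 40.7) and 229, 217 and 193 CPM in small intestine tuft cells (213 ± 18.4). It was 396, 481, 441 and 501 CPM in colon tuft cells (455 ± 46.5). In gall bladder tuft cells it was 98.9, 159 and 98.8 CPM, in thymus 111, 112, 106 and 97.1, and in trachea 175, 194, 134 and 134. The replication sum thus overlapped between small intestine and trachea tuft cells, and was lowest in gall bladder and thymus.

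The 20 mitosis genes summed to 2896, 2407 and 3220 CPM in non-tuft libraries (2841 ± 410) and to 826, 663 and 559 CPM in small intestine tuft cells (683 ± 135). In colon tuft cells the sum was 1577, 1736, 1744 and 1193 CPM (1562 ± 258). It was 7.68, 23.6 and 78.5 CPM in gall bladder tuft cells, 134, 62.4, 100 and 140 in thymus, and 59.6, 31.2, 72.3 and 53.0 in trachea. Every intestinal library lay above every library of the other 3 tissues, with none in between. As shares of the non-tuft mean, small intestine tuft cells had 36.6% of the replication and 24.0% of the mitosis sum, and colon tuft cells 78.2% and 55.0%. The other 3 tissues kept 18.4% to 27.3% of the replication sum but 1.29% to 3.85% of the mitosis sum.

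**Figure D1:**
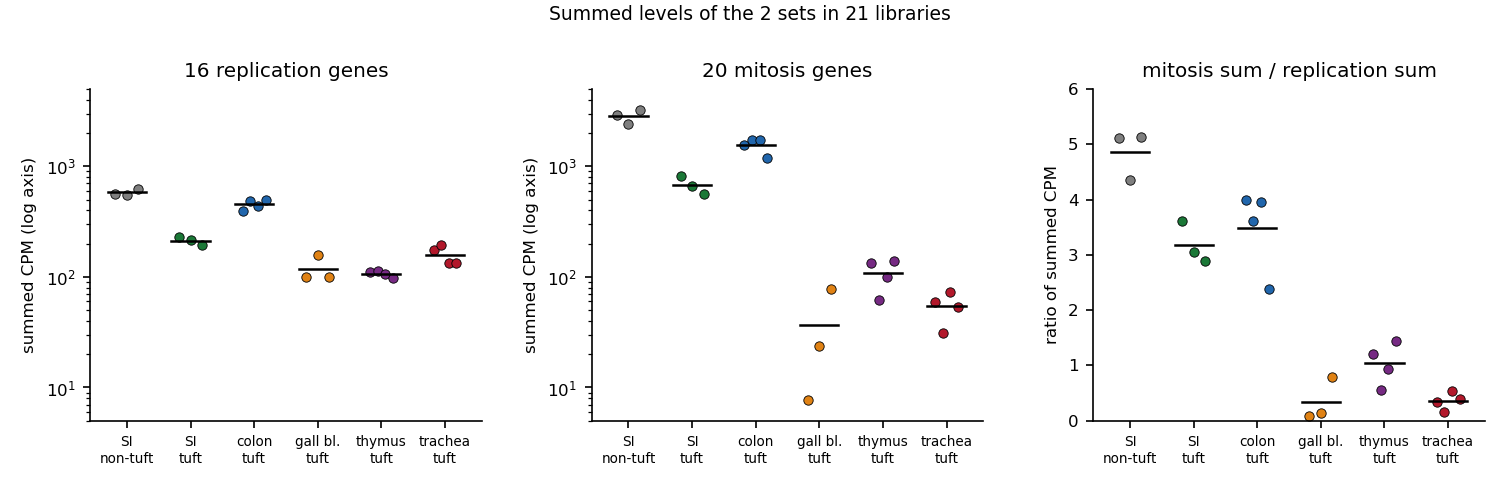
Summed levels (CPM, log axis) of the 16 replication and 20 mitosis genes in each of the 21 libraries, one point per library with the group mean as a bar, and the ratio of the 2 sums on a linear axis at the right. Mitosis sums lie above replication sums in the intestinal groups and below them in every gall bladder and trachea library.

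The ratio of the mitosis to the replication sum was 4.87 ± 0.44 in non-tuft cells (n = 3), 3.19 ± 0.37 in small intestine tuft cells (n = 3) and 3.48 ± 0.75 in colon tuft cells (n = 4). It was 1.04 ± 0.38 in thymus (n = 4), 0.34 ± 0.39 in gall bladder (n = 3) and 0.36 ± 0.16 in trachea (n = 4). In the plot of the 2 sums by library, the gap between the tissues is mostly on the mitosis side: small intestine tuft cells exceeded gall bladder, thymus and trachea tuft cells by 1.79, 1.99 and 1.34 times in the replication sum and by 18.7, 6.25 and 12.6 times in the mitosis sum. Without TMM scaling the mean replication sum was 175 CPM in small intestine tuft cells and 142 CPM in thymus, a smaller gap. All 36 genes had at least 1 count in every intestinal and thymus library. In the gall bladder 13 to 16 replication and 6 to 20 mitosis genes were detected per library, and in the trachea 10 to 16 and 5 to 19. The sums there rest on single genes. Plk1 made up 64.1%, 50.2% and 57.9% of the mitosis sum in trachea pools 2, 3 and 4. Bub1b made up 53.4% of that sum in gall bladder library 1, and Pcna 58.9% of the replication sum in the same library. Mki67 was the largest part of the mitosis sum in every intestinal library. Colon tuft libraries drew 37.1% to 43.7% of that sum from Mki67. Its share was 27.7% to 32.9% for tuft cells of the small intestine, and 25.8% to 28.9% for non-tuft cells.

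Within the small intestine, tuft cells had less of 33 of the 36 transcripts than non-tuft epithelium: 13 of 16 replication and 20 of 20 mitosis genes were lower and none was higher. Over all 16063 genes tested 13.9% were lower. The median change was -1.44 for the replication set, -2.02 for the mitosis set and -0.03 for all genes. All 36 genes were higher in each non-tuft library than in each tuft library, a separation that 34.4% of 15105 expressed genes showed in this direction. Of the 33 calls 32 held when each of the 6 libraries was left out in turn.

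Among the helicase genes, Mcm5 was at 35.6, 35.9 and 46.0 CPM in non-tuft and at 10.6, 13.6 and 10.5 CPM in tuft libraries (-1.66 ± 0.19, adjusted p = 7.3e-05). Mcm6 was at 61.6, 74.1 and 63.2 against 22.1, 16.6 and 20.3 CPM (-1.65 ± 0.16, adjusted p = 2.29e-05). Mcm2 showed a smaller fall, from 48.2, 38 and 46.6 to 17.9, 20.4 and 14.4 CPM (-1.24 ± 0.18, adjusted p = 3.61e-04). In all 3 the tuft libraries lay well under the lowest non-tuft library. Mcm3, Mcm4 and Mcm7 fell by 2.10, 1.54 and 1.25 on the log2 scale. Of the helicase activators, Cdc45 changed by -1.35 and Gins2 by -2.54 ± 0.32, the largest change of the set; 67.3% of the exon bases of Gins2 overlap Gse1 on the other strand, and since use of strand in counting is not known its value is uncertain.

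The licensing factors behaved unequally. Cdt1 was at 20.2, 22.2 and 22.0 CPM in non-tuft and 16.9, 18.5 and 14.3 CPM in tuft libraries, the smallest change of all 36 (-0.28 ± 0.17, adjusted p = 0.223). Cdc6 passed the test (-1.15 ± 0.36, adjusted p = 0.0255), with 9.57, 12.3 and 12.0 against 4.12, 2.74 and 7.33 CPM. It was the single call lost on leaving out a library, with an adjusted p of 0.0557 to 0.0802 without non-tuft library 2 or 3 or tuft library 2 or 3. The nucleotide genes fell, Rrm2 from 31.1, 30.5 and 31.2 to 11, 6.28 and 8.85 CPM (-1.73 ± 0.22, adjusted p = 1.45e-04), Tyms by 1.32 and Rrm1 by 1.53. The clamp gene Pcna had 67.9, 66.0 and 81.7 against 48.7, 41.1 and 30.6 CPM; its change of -0.75 ± 0.17 (adjusted p = 0.00649) was under the 2-fold minimum. Of the cyclin E genes, Ccne1 fell by 2.07 ± 0.40 and Ccne2, with 6.70, 5.16 and 6.12 against 3.95, 3.96 and 2.72 CPM, was not called (-0.66 ± 0.31, adjusted p = 0.108).

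The mitosis genes fell by similar amounts, from -1.60 ± 0.20 for Birc5 (survivin, a passenger of the Aurora B kinase) to -2.51 ± 0.27 for Aurkb itself. Mki67, which codes for the proliferation antigen Ki-67 that coats mitotic chromosomes, had 748, 696 and 882 CPM in non-tuft and 271, 213 and 155 CPM in tuft libraries (-1.77 ± 0.20, adjusted p = 6.74e-05). The DNA untangling enzyme Top2a had 335, 285 and 359 against 77.4, 73.6 and 67.1 CPM (-2.07 ± 0.14, adjusted p = 1.77e-06). The tuft levels, although lower, were not near the detection limit: Mki67 in every small intestine tuft library exceeded its level in all libraries from gall bladder, thymus and trachea. Cdk1, the kinase that starts mitosis, had 43.6, 34.5 and 38.6 against 7.15, 7.95 and 7.43 CPM (-2.27 ± 0.17, adjusted p = 5.46e-06).

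Its partners fell too, Ccna2 by 1.91 ± 0.20, Ccnb1 by 1.83 ± 0.37 and Ccnb2 by 2.17 ± 0.22. The polo-like kinase Plk1 had 86.9, 94.9 and 109 against 16.2, 17.2 and 18.2 CPM (-2.39 ± 0.15), with the lowest adjusted p of the 36 (1.11e-06). Checkpoint and kinetochore genes changed by -2.44 (Bub1), -2.21 (Bub1b), -2.06 (Cenpe) and -2.21 (Cenpf), and the motors and spindle assembly genes Kif11, Kif20a, Tpx2 and Nusap1 by -1.99, -1.93, -1.96 and -1.89. Cdc20 and Ube2c, which activate and feed the anaphase-promoting ubiquitin ligase, changed by -2.13 ± 0.29 and -1.96 ± 0.25. As ratios of mean CPM, non-tuft over tuft, the mitosis genes ran from 3.25 (Birc5) to 6.06 (Aurkb) with a median of 4.35, and the replication genes from 1.30 (Cdt1) to 6.26 (Gins2) with a median of 2.91.

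Markers of other cell types moved with this comparison, in which 13.9% of all genes were lower and 13.0% higher. Goblet markers summed to 103079 to 112792 CPM in non-tuft and 2075 to 2512 CPM in tuft libraries, and all 8 goblet, 8 enteroendocrine and 6 Paneth markers were lower in tuft cells. Of 16 markers of crypt stem cells and progenitors 9 were lower and 2 higher, and their sums were 1570 to 1916 against 1328 to 1489 CPM; none was at 0 in either group. Enterocyte markers went the other way, at 17512 to 18942 against 31722 to 35138 CPM, with 2 of 10 higher. The part of these cells in the cell cycle levels was not tested. When all 21 libraries shared one estimate of the spread between libraries, 0 of the 36 genes passed by edgeR's quasi-likelihood test (adjusted p from 0.0904 to 0.937), while all 36 changes stayed negative (-2.60 to -0.34). In that fit the spread of the other tissues, which is wide for these genes, is shared with the small intestine, and calls over all genes went from 2235 to 539 lower.

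**Figure D2:**
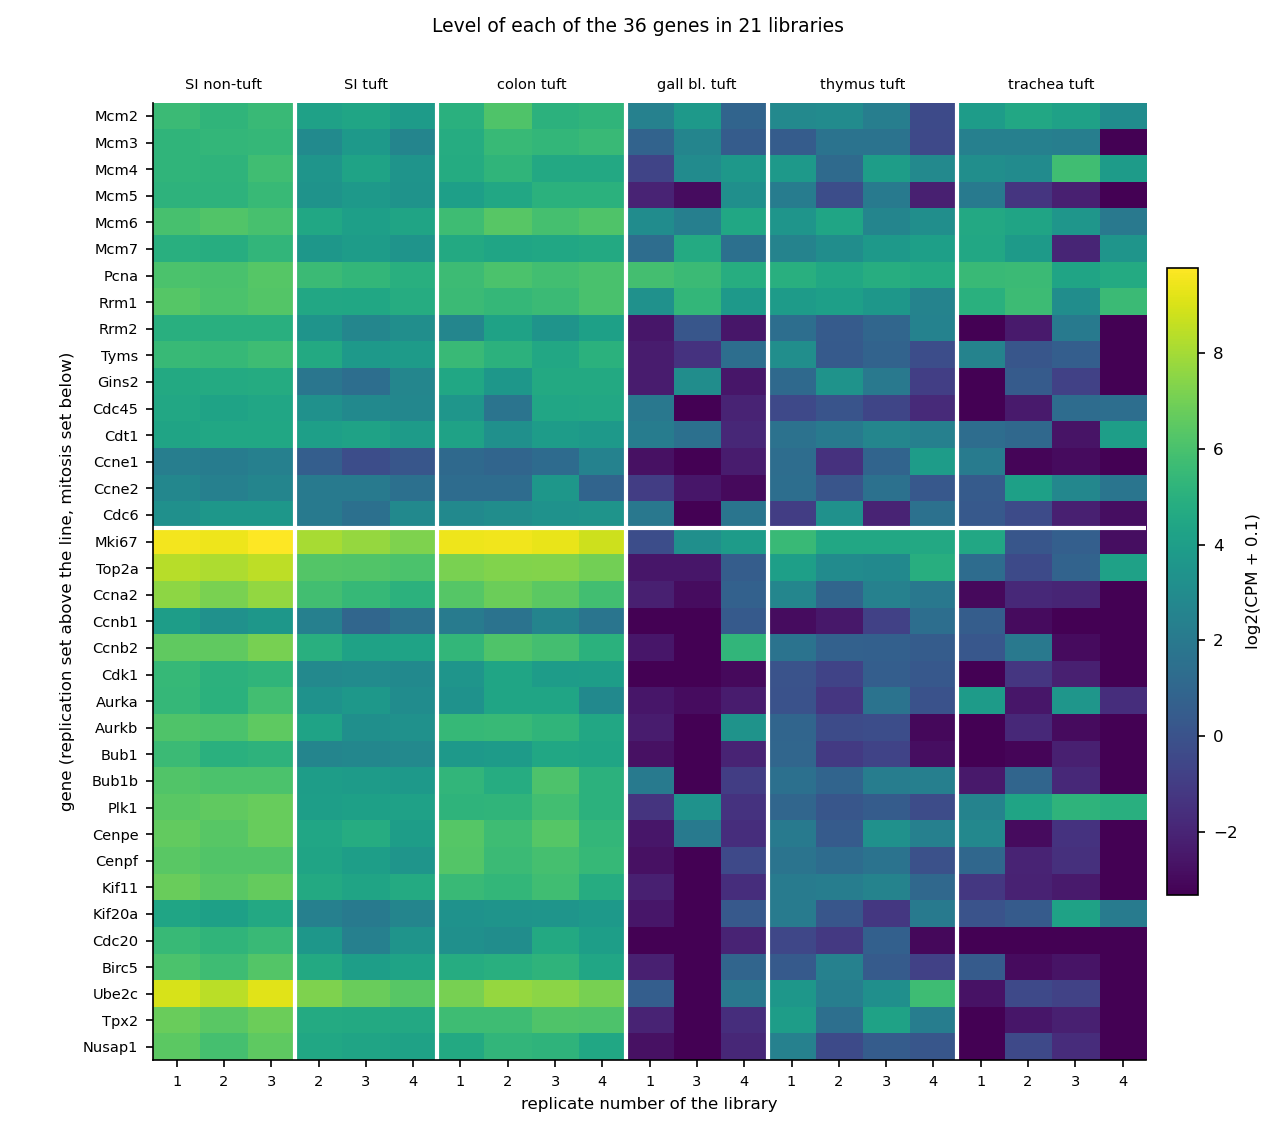
Level of each of the 36 genes in each library, as log2(CPM + 0.1), with genes in rows grouped by set and libraries in columns grouped by tissue. Non-tuft columns are the highest for most genes, and the mitosis rows of gall bladder and trachea are near the floor with exceptions such as Plk1 in trachea.

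In tuft cells of the colon most of the 36 transcripts were higher than the mean over the other tuft tissues. Against the unweighted mean of the other 4 tuft tissues, 9 of 16 replication and 18 of 20 mitosis genes were higher and none was lower, where 10.7% of the 19850 genes tested were higher and 5.78% lower. The median changes were 2.13 and 4.75. Mki67 was at 689, 725, 647 and 447 CPM in colon (4.70 ± 0.67, adjusted p = 4.07e-05), and Tpx2, a spindle assembly factor, at 52.9, 51.7, 71.1 and 69.6 CPM (5.69 ± 0.57, adjusted p = 5.06e-07). Among replication genes Mcm3 had the largest change (3.41 ± 0.66, adjusted p = 9.3e-04), with 27.7, 46.1, 41.4 and 47.9 CPM. Mcm4, Mcm7, Pcna, Cdt1, Ccne1, Ccne2, Cdc6, Ccnb1 and Kif20a were not called. Of the 27 calls 21 held without each library in turn; Mcm5, Rrm1, Rrm2, Gins2, Cdc45 and Ccnb2 did not, and replication calls fell to 4 without colon library 3 or 4 and to 5 without colon library 1 or small intestine tuft library 3 or 4.

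Compared with small intestine tuft cells alone, those of the colon had 2.14 times the replication sum and 2.29 times the mitosis sum. The median ratio of mean CPM per gene was 1.99 for the replication and 2.16 for the mitosis set. The per-gene test result depended on the fit. In the fit of all 18 tuft libraries 0 of the 36 genes passed in either direction by edgeR (4.46% of all genes were higher and 3.9% lower), with 1 of 36 at an unadjusted p under 0.05. DESeq2 called 1 higher and limma-voom with sample weights 17. Over all genes limma-voom called 2661 higher, in place of 885 by edgeR. The changes ran from -0.27 ± 1.08 (Cdt1) to 2.31 ± 1.59 (Gins2), with medians of 0.96 and 1.08 against 0.12 for all genes. When only the 3 small intestine and 4 colon libraries were fitted, a choice made after seeing the data, 17 genes were higher in colon: Mcm2, Mcm3, Mcm5, Mcm6, Rrm1 and Gins2, and 11 mitosis genes. Mki67 then changed by 1.51 (adjusted p = 4.02e-04) and Mcm6 by 1.71 (adjusted p = 1.5e-04). The share of all genes higher in this fit is not given here, so the 17 cannot be set against it. All colon libraries lay above all small intestine tuft libraries for 11 replication and 14 mitosis genes, as they did for 23.7% of expressed genes. Mki67 was among these, at 447 CPM or more against 271 or less; Rrm2 was not, with 6.28, 18.4, 10.8 and 17.4 against 11, 6.28 and 8.85 CPM.

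Colon tuft cells differed from the non-tuft small intestine less than tuft cells of any other tissue did, in both sums. In the fit of 21 libraries, 0 of the 36 genes differed by edgeR, and 0 of 36 had an unadjusted p under 0.05. Over all genes 3.27% were lower and 4.4% higher by edgeR. Of the 36, 2 were lower by DESeq2, 15 by limma-voom and 15 when the 2 groups were fitted alone. limma-voom called 2517 of all genes lower, in place of 664 by edgeR. The share of all genes in the fit of the 2 groups alone is not given here. Mcm6 was at 52.2, 82.0, 60.0 and 72.4 CPM in colon tuft against 61.6, 74.1 and 63.2 CPM in non-tuft cells (0.03 ± 0.56). The mean of Mki67 in non-tuft cells was 1.24 times that in colon tuft cells (-0.28 ± 0.95). This was the smallest such ratio among the 20 mitosis genes, whose median was 2.19. The ratio of the mitosis sums was 1.82, under that median, with Mki67 the largest part of both sums. The libraries overlapped for 11 of 16 replication genes, whereas for 17 of 20 mitosis genes, all but Mki67, Bub1b and Cenpf, every non-tuft library was above every colon library; 20.0% of expressed genes were separated in this direction. Ube2c, for example, had 136, 212, 181 and 136 CPM in colon tuft and 518, 345 and 590 CPM in non-tuft cells. Crypt stem and progenitor markers summed to 1575 to 2110 CPM in colon tuft cells and goblet markers to 6401 to 9022 CPM. The 13 tuft markers summed to 5064 to 6725 CPM in colon, 6460 to 7916 in thymus and 24185 to 33759 in small intestine tuft cells. Against the other tuft tissues 9 of these 13 were lower in colon and 0 higher, where 5.78% and 10.7% of all genes were. The part of any of these differences in the cell cycle levels was not tested.

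Small intestine tuft cells, compared with the mean of the other 4 tuft tissues, had 14 of 20 mitosis genes higher but 0 of 16 replication genes, with none lower; 10.0% of all genes were higher and 7.45% lower. Of the replication genes 1 of 16 had an unadjusted p under 0.05, 0 of 16 passed by DESeq2 and 6 by limma-voom with sample weights. Ccna2 had the lowest adjusted p (4.39 ± 0.57, adjusted p = 1.09e-05), with 56.3, 43.2 and 34.3 CPM. The differences of Pcna (0.01 ± 0.32), Mcm4, Mcm6 and Mcm7 (-0.03 to 0.05) were the smallest. Cdc20 had 11.9, 5.16 and 11 CPM in small intestine and 0 counts in all 4 trachea libraries. A floor of 3 counts over the trachea group would put Cdc20 498-fold lower there, if reads were independent. Of the 14 calls 9 held without each library in turn; Mki67, Aurka, Aurkb, Birc5 and Cenpf did not, and all 5 were lost without small intestine tuft library 2. All small intestine tuft libraries lay above all gall bladder, thymus and trachea libraries for 14 of 20 mitosis genes and for Mcm5, Rrm2, Tyms and Cdc45 among the 16 replication genes, against 6.97% of expressed genes. For colon the counts were 16 and 7, against 5.65%. These 5 comparisons with the mean of the other tissues use the same libraries, as do the 4 with non-tuft cells, and are not independent.

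**Figure D3:**
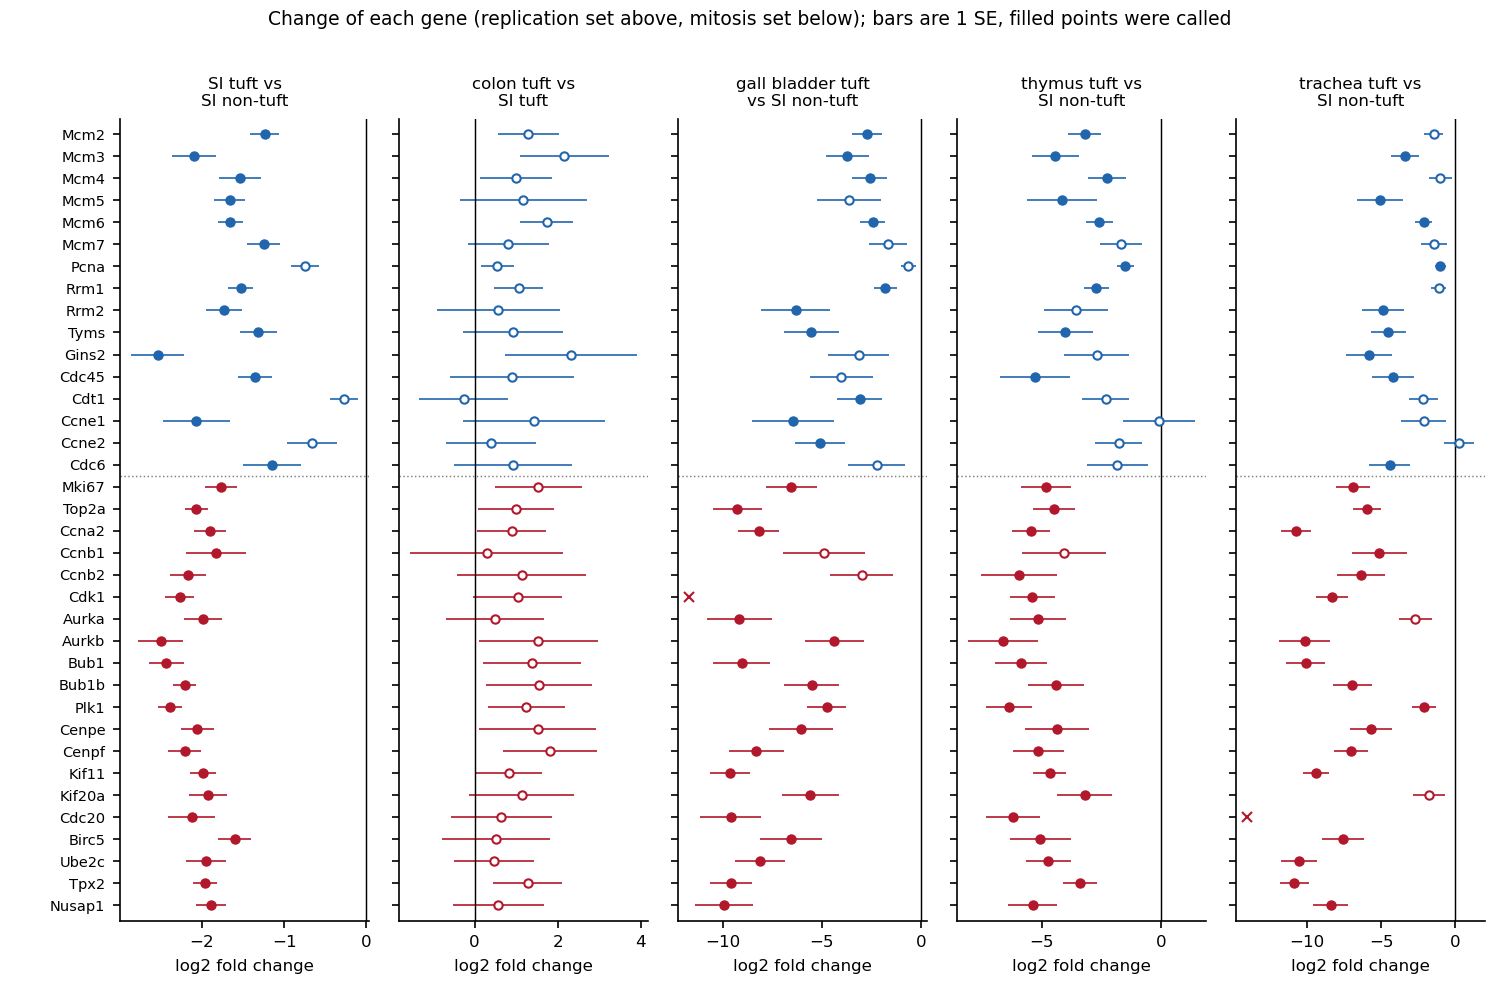
Log2 fold changes of the 36 genes with bars of 1 SE in 5 comparisons, replication genes above and mitosis genes below the dotted line, filled where the change passed the test. Crosses mark Cdc20 in the trachea and Cdk1 in the gall bladder, whose fitted values rest on 0 counts and 1 count and are no bounds. Scales differ between panels, and in the 4 panels of changes from non-tuft cells every point but Ccne2 in trachea lies below 0.

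In gall bladder tuft cells most mitosis transcripts were near the detection limit, while Pcna, Rrm1, Mcm6 and some other replication transcripts were not. Part of the replication set was also near it, with medians of 0.147 CPM for Mcm5, 0.0749 for Rrm2, 0.283 for Tyms and 0.0981 for Gins2. For Cdc45, Ccne1 and Ccne2 the medians were 0.15, 0.0491 and 0.0707 CPM. Against non-tuft cells 10 of 16 replication and 18 of 20 mitosis genes were lower (13.5% of all 20335 genes), with median changes of -3.12 and -8.14 against -0.21 for all genes. Cdk1 had 1 count over the 3 libraries, and Top2a was at 0.0736, 0.0707 and 1.37 CPM (-9.25 ± 1.24, adjusted p = 8.68e-06). Pcna was at 58.2, 48.2 and 29.1 CPM, close to the 48.7, 41.1 and 30.6 CPM of small intestine tuft cells, and had the smallest change from non-tuft (-0.64 ± 0.38, adjusted p = 0.219). Library 4 stood apart for a few mitosis genes: Ccnb2 was at 39.9 CPM there against 0.0736 and 0, and Aurkb at 10.6 against 0.0981 and 0. Ccnb2 was not called (-2.99 ± 1.57, adjusted p = 0.162). Of the 28 calls 22 held without each library in turn; Mcm3, Mcm4, Rrm1, Cdt1, Ccne1 and Aurkb did not.

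Compared with the mean of the other tuft tissues, gall bladder tuft cells had 1 of 16 replication and 11 of 20 mitosis genes lower (8.79% of all genes) and none higher. The replication gene was Ccne2, at 0.417, 0.0707 and 0.025 CPM (-4.43 ± 1.25, adjusted p = 0.0153). The mitosis genes were Mki67, Top2a, Ccna2, Cdk1, Aurka, Bub1, Cenpf, Kif11, Ube2c, Tpx2 and Nusap1. Kif11, the motor that pushes spindle poles apart, was at 0.123, 0 and 0.225 CPM (-5.34 ± 0.99, adjusted p = 6.41e-04). Calls of Ccne2, Mki67, Bub1, Cenpf and Ube2c were lost in at least 1 fit without a library, that of Ccne2 without gall bladder library 3 or 4.

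In thymus tuft cells every gene had at least 1 count in every library, though some had very few. Library 4 had 1 count of Cdc20, 1 of Aurkb and 2 of Bub1, and library 1 had 2 of Ccnb1. Against non-tuft cells 9 of 16 replication and 19 of 20 mitosis genes were lower (10.3% of all genes), with median changes of -2.63 and -5.11; the median over all genes was 0.22. Mki67 was at 46.7, 23.1, 23.0 and 23.8 CPM and Top2a at 17.1, 8.03, 7.49 and 30.2 CPM (-4.48 ± 0.88, adjusted p = 6.31e-04). Aurkb had the largest change (-6.63 ± 1.46, adjusted p = 0.00177), with 1.83, 0.690, 0.764 and 0.02 CPM. Pcna was at 31.2, 23.1, 28.5 and 26.1 CPM and here did fall (-1.50 ± 0.36, adjusted p = 0.00337). Ccne1 did not, at 2.43, 0.268, 1.80 and 15.1 CPM (-0.09 ± 1.51).

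Against the mean of the other tuft tissues the thymus differed for few members. Ccne1 and Tpx2 were higher, where 26.8% of all genes were, and Mcm2, Rrm1 and Plk1 were lower, where 5.64% were. Tpx2 was at 15.9, 2.64, 18.9 and 4.58 CPM in thymus and at 0.225 CPM or less in every gall bladder and trachea library (2.54 ± 0.56, adjusted p = 0.0012). Every small intestine tuft library (25.9, 24.9 and 23.7 CPM) and every colon tuft library (51.7 to 71.1 CPM) lay above every thymus library for Tpx2. Plk1 was at 1.92, 1.03, 1.32 and 0.720 CPM (-3.62 ± 0.86, adjusted p = 0.00245). These calls held without each library in turn, while those of Ccne1, Mcm2 and Rrm1 did not: without thymus library 4 the change of Ccne1 went from 2.92 ± 1.10 (adjusted p = 0.0446) to 1.22 (adjusted p = 0.527). Markers of thymocytes and T cells summed to 8.60 to 40.1 CPM in thymus libraries, with Ptcra at 0; 8 of 10 tested were higher than in the other tuft tissues. Markers of B and myeloid cells summed to 247 to 330 CPM, none at 0, with 6 of 9 tested higher, and those of medullary thymic epithelium to 1496 to 1790 CPM against 329 or less in the other groups. The CD45- gate is meant to leave out blood cells. How fully it did so, and the part of any that remained, was not tested.

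In trachea tuft cells most of the mitosis set was at or near 0, with a few genes well above it, some of them in 1 pool each. Against non-tuft cells 9 of 16 replication and 18 of 20 mitosis genes were lower (17.2% of all genes), with median changes of -2.16 and -7.31. Tpx2 was at 0, 0.0757, 0.126 and 0 CPM (-10.86 ± 0.99, adjusted p = 2.75e-08) and Ccna2 at 0.0276, 0.182, 0.158 and 0 CPM. Cdc20 had 0 counts in all 4 pools. Mcm3 had 0 counts in pool 4 but 186, 341 and 151 in pools 1 to 3, so 0 counts set no firm limit on a level. A floor of 3 counts over the group would put Cdc20 2331-fold under non-tuft cells, if reads were independent. Plk1, in contrast, was at 5.63, 20.0, 36.3 and 30.7 CPM, above its level in all small intestine tuft libraries in pools 2 to 4. Its fall from non-tuft cells was at the edge of the threshold (-2.12 ± 0.81, adjusted p = 0.0492) and did not hold without each library in turn. Aurka, a spindle pole kinase that Plk1 works with, was at 14.8, 0.0757, 11.9 and 0.234 CPM (-2.70 ± 1.08, adjusted p = 0.0605), and Kif20a, a motor of cell division, at 0.911, 1.26, 18.8 and 4.21 CPM (-1.78 ± 1.11, adjusted p = 0.226). Mki67 was at 22.9 CPM in pool 1 and 0.039 to 1.45 CPM in the others, and Top2a at 17.8 CPM in pool 4. Which pools were high differed from gene to gene.

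Against the mean of the other tuft tissues the trachea had 1 replication gene higher (17.3% of all genes), and 1 replication and 13 mitosis genes lower (13.7%). The higher gene was Ccne2, at 1.24, 17.1, 6.53 and 3.32 CPM (2.15 ± 0.73, adjusted p = 0.0281); without trachea pool 2 its change was 1.22 (adjusted p = 0.267). Exons of Ccne2 share 17.4% of their bases with Ints8 on the other strand. Plk1 and Aurka were not called (1.57 ± 0.62, adjusted p = 0.0545, and 1.75 ± 0.81, adjusted p = 0.0997). Rrm1 was at 31.7, 51.2, 8.49 and 48.6 CPM and Pcna at 48.0, 49.2, 20.1 and 25.9 CPM, so that Rrm1 was above every small intestine tuft library in 3 pools and below them all in pool 3, and Pcna was spread about their range. Of the 15 calls 9 held without each library in turn; Birc5, Ccne2, Cdc20, Cdk1, Cenpf and Gins2 did not. Markers of airway secretory and ciliated cells summed to 28522 to 111767 CPM in trachea pools and those of B and myeloid cells to 1930 to 3787 CPM, against at most 330 CPM in other groups. Of 9 B and myeloid markers tested, 3 were higher and 3 lower than in the other tuft tissues, and Cd79a, Ms4a1, C1qa and Fcer1g were at 0. Sorting for CD45- cells is meant to leave out blood cells, and how fully it did so was not tested. The part of airway and blood cells, of 130 to 453 cells per pool and of the female pools was not tested. Without the female pools, 11 genes in place of 14 were lower than in the other tuft tissues.

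Per kilobase of exon, the order of the genes also differed between groups. In non-tuft cells Ube2c was the highest (186 CPM per kb), followed by Mki67 (77.1), Ccnb2 (71.8), Plk1 (44.0) and Ccna2 (43.7), and the highest replication gene was Pcna (29.9). In small intestine tuft cells the order began with Ube2c (45.0), Mki67 (21.2) and Pcna (16.7), and in colon tuft cells with Ube2c (63.9), Mki67 (62.3) and Ccnb2 (33.3). Pcna led in gall bladder (18.8 CPM per kb), thymus (11.3) and trachea (14.9), where the next by mean were Ccnb2 (8.70), Ube2c (7.56) and Plk1 (10.5). The place of Ccnb2 rests on gall bladder library 4 and that of Ube2c leans on thymus library 4, at 52.4 CPM against 4.83 to 12.3 in the others. Pcna is also used in DNA repair, outside replication. Its level and those of Tyms, Ccnb1 and Ccnb2 could include or lose reads shared with annotated pseudogene copies, since how such reads were counted is not known. For the same reason Kif20a, which shares 29.3% of its exon bases with Cdc23 on the other strand, and Ube2c, which shares 22.8% with Tnnc2, are uncertain.

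The promoters of both sets were then searched for 3 motifs known to bind cell cycle regulators: the CCAAT box, bound by NF-Y; the cell cycle homology region (CHR), through which the MuvB complex acts on late genes; and a short E2F core, typical of replication genes. RefSeq promoter windows on GRCm38.p6, from 250 bases before to 50 bases after a gene's start, were found for 29 of the 36 genes, in 30 windows. Both strands were searched. The CHR letters (TTTGAA or TTCGAA) were in 12 of 16 mitosis windows and 3 of 14 replication windows, and in 19.2% of all 32851 windows. The E2F-like letters (TTCCCGC or TTGGCGC) were in 3 of 16 mitosis and 8 of 14 replication windows, and in 6.81% of all. CCAAT was in 14 of 16 and 10 of 14, and in 37.4% of all. In the 250 bases before the start alone, CHR letters were in 8 of 16 mitosis windows and the E2F core in 6 of 14 replication windows. The difference between the sets was not tested. A match is a description of these letters and not evidence of binding. Shown for Cdk1 and Cdc20, which were near 0 in gall bladder and trachea, and for 2 helicase genes with the E2F core are the 160 bases before the start, 5′ to 3′ on the gene's strand, with matches to any of the 3 motifs on either strand in capitals; no matches overlap there, although the last letters of the E2F core's complement can overlap CCAAT.
Cdk1, chr10:69352913-69353072, minus strand: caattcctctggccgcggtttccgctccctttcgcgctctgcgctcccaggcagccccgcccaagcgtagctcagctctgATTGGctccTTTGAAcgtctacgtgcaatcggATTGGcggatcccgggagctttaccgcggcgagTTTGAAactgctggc
Cdc20, chr4:118437344-118437503, minus strand: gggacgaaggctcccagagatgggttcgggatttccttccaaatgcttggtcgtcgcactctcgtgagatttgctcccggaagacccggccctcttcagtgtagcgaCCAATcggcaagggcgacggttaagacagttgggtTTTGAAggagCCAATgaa
Mcm5, chr8:75109349-75109508, plus strand: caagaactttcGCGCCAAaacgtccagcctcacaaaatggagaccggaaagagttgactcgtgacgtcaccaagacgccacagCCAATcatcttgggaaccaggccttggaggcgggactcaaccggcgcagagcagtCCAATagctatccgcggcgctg
Mcm6, chr1:128359706-128359865, minus strand: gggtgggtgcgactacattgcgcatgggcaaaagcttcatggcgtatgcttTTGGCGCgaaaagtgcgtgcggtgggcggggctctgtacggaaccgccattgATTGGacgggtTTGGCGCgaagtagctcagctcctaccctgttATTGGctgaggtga
Cdk1 and Cdc20, which had 1 and 6 counts over the gall bladder libraries and 25 and 0 over the trachea pools, each carry TTTGAA and CCAAT (or its complement ATTGG). They were picked for their low levels. Birc5 and Nusap1, also low in both tissues, had no match to any of the motifs in their windows. Plk1 and Aurka, which were higher in some trachea pools, had CHR letters past the start. A link between motif and level was not tested. Mcm5 and Mcm6 carry the E2F core (TTGGCGC or its complement GCGCCAA) with CCAAT and have no CHR letters in the stretch shown. Cdk1 also has an E2F-like core, at -178 relative to the start, which lies outside the stretch shown. In the gall bladder Mcm6 was at 8.10, 5.02 and 22.6 CPM and Mcm5 at 0.147, 0.0353 and 9.02 CPM, so that Mcm5 and Mcm6 were not alike in level there.

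Other genes of the cycle were counted from 4 lists that exclude the 36. Within the small intestine 18 of 35 other replication genes and 41 of 46 other mitosis genes were lower in tuft cells (13.9% of all genes). Of these lists 1 gene, Bub3, was higher (13.0% of all genes). The largest falls were in the checkpoint mediator Clspn (-2.66 ± 0.23), the origin recognition gene Orc1 (-2.23 ± 0.62) and the polymerase gene Pola1 (-2.08 ± 0.24), and among mitosis genes in Kif18a, Ckap2 and Cdca2 (-2.65, -2.49 and -2.43). In colon against the other tuft tissues 13 of 35 and 41 of 46 were higher (10.7% of all genes), in small intestine 7 and 30 (10.0%). In gall bladder 8 and 23 were lower (8.79% of all genes) and 2 and 1 higher (12.7%), and in trachea 9 and 30 were lower (13.7%) and 1 and 1 higher (17.3%). The thymus had 3 and 7 higher (26.8%) and 3 and 4 lower (5.64%). Bub3, a checkpoint protein whose level did not follow the set, was at 52.5, 48.7 and 61.0 CPM in non-tuft, 270, 221 and 226 CPM in small intestine tuft and 208 to 321 CPM in gall bladder tuft cells (2.24 ± 0.14 in the small intestine comparison, adjusted p = 1.43e-06).

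**Figure D4:**
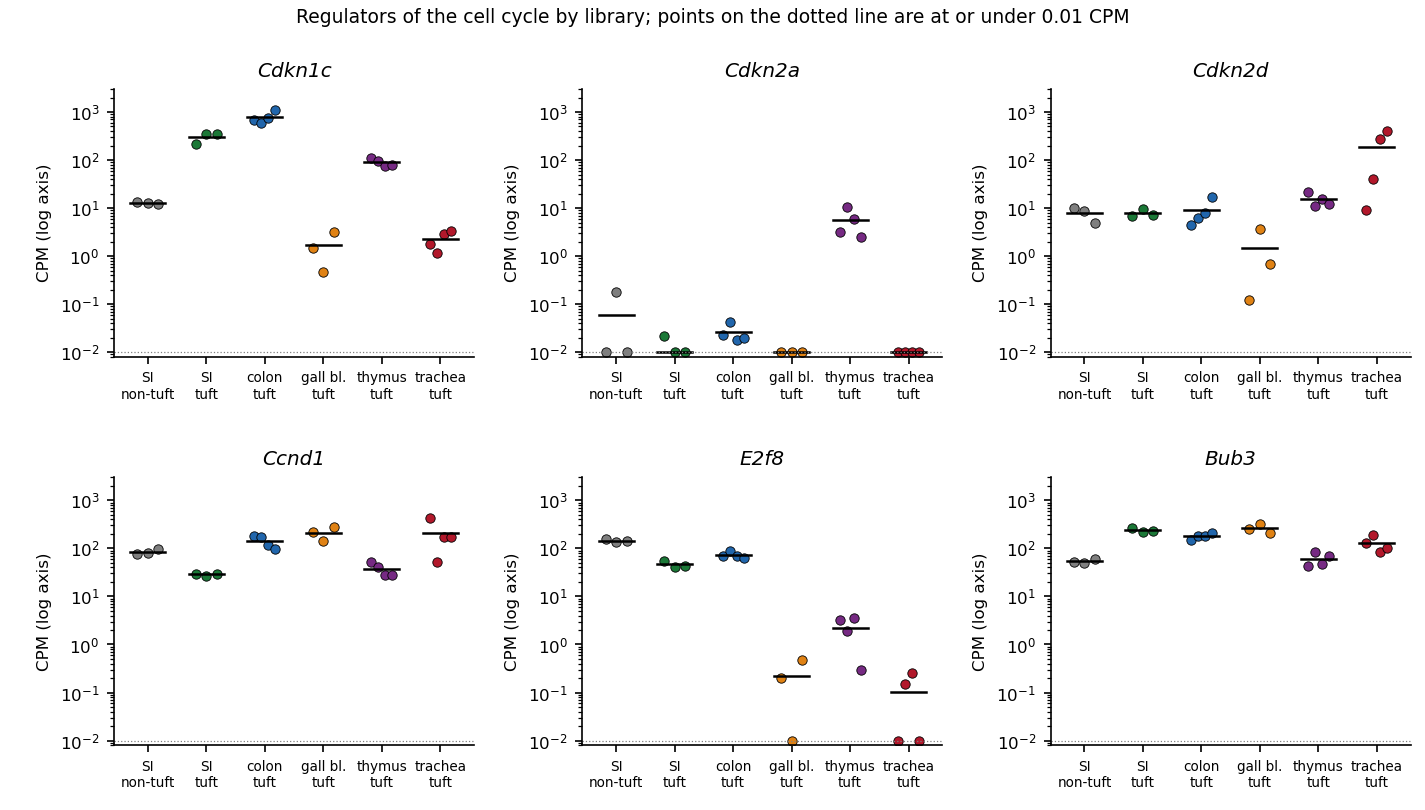
Levels (CPM, log axis, values under 0.01 drawn at 0.01) of the regulators Cdkn1c, Cdkn2a, Cdkn2d, Ccnd1 and E2f8 and of Bub3 in each library by group. Cdkn1c is high in intestinal and thymus tuft cells, and Cdkn2a is above 1 CPM in thymus libraries only.

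Genes that act before replication, and inhibitors of the kinases, did not share one pattern. Of 18 cyclins, kinases and drivers of the G1 phase, 12 were lower and 1 higher in small intestine tuft than in non-tuft cells (13.9% and 13.0% of all genes), the latter Cdk2 (1.84 ± 0.16). E2f8, a repressor that is itself made during replication, was at 153, 136 and 144 CPM in non-tuft, 55.1, 41.9 and 43.8 in small intestine tuft and 68.2, 87.0, 70.4 and 63.5 in colon tuft cells, and at 3.61 CPM or less elsewhere. Ccnd1, the cyclin that receives growth signals, was not low where mitosis genes were: it was at 223, 141 and 277 CPM in gall bladder and 435, 52.4, 170 and 176 CPM in trachea tuft cells against 29.6, 26.9 and 29.5 CPM in small intestine tuft cells. It was higher in colon than in small intestine tuft cells (2.26 ± 0.50, adjusted p = 0.00612), with 177, 173, 115 and 96.5 CPM, as was Myc (1.66 ± 0.46, adjusted p = 0.0281).

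Of the inhibitors and exit genes, Cdkn1c, which codes for the kinase inhibitor p57, showed the largest change: 13.3, 13.1 and 12.2 CPM in non-tuft and 215, 341 and 346 CPM in small intestine tuft libraries (4.65 ± 0.22, adjusted p = 1.76e-07). Of 17 tested there, Cdkn1c was the only one higher and Cdkn2b the only one lower, so that the shares called were under the 13.0% and 13.9% of all genes. Colon tuft cells had 681, 598, 748 and 1122 CPM, thymus 113, 96.8, 73.5 and 77.4, and gall bladder and trachea 0.459 to 3.39 CPM. Cdkn1c was thus low in the 2 tissues with the lowest mean mitosis sums. Other inhibitors were highest elsewhere: Cdkn2a (p16 and p19ARF) was at 3.18, 10.7, 6.05 and 2.54 CPM in thymus and at most 0.182 CPM elsewhere. Cdkn2d (p19INK4d) was at 8.95, 40.1, 277 and 411 CPM in trachea and higher than in the other tuft tissues (4.82 ± 0.62, adjusted p = 7.99e-06). The values of 277 and 411 CPM were those of the female pools, and the part of sex in this spread was not tested.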

How the data were processed

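Per the labels' protocols, poly(A) RNA of the sorted cells was amplified with the NuGEN Ovation RNA-Seq V2 kit, without molecular identifiers, before Nextera XT library preparation. The series description states that 4 replicates of every group were sorted and that 1 each from the non-tuft, gall bladder tuft and small intestine tuft groups was dropped for quality. The counts deposited by the authors are whole numbers for each gene and are not normalized. STAR, DESeq2 and GRCm38 appear in the submitters' processing notes; tool versions, annotation, counting step and strand setting were not given in the sources used here. Of 43432 identifiers 42548 matched GENCODE M21, and the other 884 held 0.0986% of counts.

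Members and gene lists were chosen with earlier results of these data known. Counts were tested with edgeR 4.0.16 (quasi-likelihood, TMM, filterByExpr, R 4.3.3) in 3 fits: 6 small intestine libraries; 18 tuft libraries, for colon against small intestine and each tissue against the unweighted mean of the other 4; and all 21 libraries, for the other tissues against non-tuft cells. The SE is the change divided by the root of the F statistic and is approximate. The calls need an adjusted p under 0.05 and a change of 2-fold, and the procedure was tested on simulated data. Fold differences from 0 counts use a floor of 3 counts over the group, which treats reads as independent. Motif shares come from RefSeq promoter windows. All 36 genes could be named; of the other lists, the 3 called genes with the largest change each way per comparison. Alternatives were DESeq2 1.42.0, its size factors, limma 3.58.1 (voom with sample weights), no filter, a replicate block, no mitochondrial transcripts, other sets of libraries and each library left out. Mitochondrial transcripts made up 14.8% to 33.5% of counts in gall bladder and intestinal libraries and 4.38% to 10.1% in thymus and trachea.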

Additional observations from a re-analysis of the deposited data

Results flagged for a closer look

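Levels of the 36 genes, the 2 sums and their ratio were examined in 117 groups of 4 libraries. Of these, 25 held 1 library far from the other 3, by the gap to its nearest neighbour as a share of the group's range. About 1 in 20 groups of normally distributed values would pass this cutoff. For low levels of amplified reads that rate need not hold, so no excess over chance is drawn from the 25. Of the 25 groups, 14 were in trachea pools, 7 in thymus and 4 in colon, and in 24 the library was high. Groups of 3 libraries could not be examined in this way.

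In the trachea, pool 1 was high for Mki67 (22.9 CPM against 0.039 to 1.45), Cenpe (6.93), Ccne1 (4.31), Mcm5 (4.17), Cenpf (1.96), Ccnb1 (1.38) and Birc5 (1.24). Pool 2 was high for Bub1b (1.86), and pool 3 for Mcm4 (55.1 CPM against 7.96 to 14.4), Rrm2 (4.20) and Bub1 (0.126). Pool 4 was high for Top2a (17.8 CPM against 0.666 to 2.37) and Cdt1 (16.0) and had 0 counts of Mcm3, where the other pools had 4.76 to 5.16 CPM.

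In the thymus, library 1 was high for Mki67 (46.7 CPM against 23.0 to 23.8), Tyms (8.73), Nusap1 (5.29) and Ccnb2 (3.10), library 2 for Birc5 (5.27) and library 4 for Ube2c (52.4 CPM against 4.83 to 12.3) and Ccne1 (15.1). In the colon, library 2 was high for Mcm2 (71.8 CPM against 31.8 to 38.3), library 3 for Plk1 (56.8) and Ccne2 (12.4), and library 4 for Ccne1 (5.61 CPM against 1.84 to 2.26).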

How the results depend on the processing

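Leaving out 1 library at a time gave these ranges of called members: small intestine tuft against non-tuft 32 to 33 lower; small intestine against the other tuft tissues 9 to 18 higher; colon 21 to 29 higher; gall bladder 9 to 16 lower; thymus 1 to 2 higher and 1 to 4 lower; trachea 1 to 2 higher and 11 to 17 lower; and gall bladder, thymus and trachea against non-tuft 24 to 30, 24 to 31 and 23 to 28 lower. The 9 was without small intestine tuft library 2, and the thymus lower count was 1 without thymus library 3 or 4. With all 21 libraries in the fit, 0 genes in place of 33 were lower in small intestine tuft than in non-tuft cells. limma-voom gave 26 in place of 14 higher in small intestine, 0 in place of 1 higher in trachea, 17 in place of 0 higher in colon than in small intestine tuft cells and 15 in place of 0 lower in colon tuft than in non-tuft cells. DESeq2 gave 5 in place of 3 lower in thymus and 1 and 2 in the 2 colon comparisons, where the groups fitted alone, an alternative added after seeing the data, gave 17 and 15. Without the female trachea pools 5 genes were lower in thymus and 1 was higher in colon than in small intestine tuft cells. Without mitochondrial transcripts 1 gene in place of 2 was higher in thymus.

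Among single genes, 5340 values under alternatives kept direction and call, 302 lost the call, 40 gained it and 5 reversed. Ccne2 in colon against small intestine tuft cells went from 0.39 to -0.011 with voom, and ran from -0.72 (without colon library 3) to 0.66 without single libraries. Mcm6 in colon tuft against non-tuft cells went from 0.03 to -0.090, -0.08 and -0.02 without colon library 2, colon library 4 or non-tuft library 1, and to 0.14 at most. Without TMM scaling the replication sum was 175 CPM in small intestine tuft and 142 CPM in thymus. The causes were not tested. Size factors of DESeq2 moved the median change of all genes in thymus against non-tuft cells from 0.22 to 0.44.

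Same-numbered libraries did not deviate together (median correlation -0.05 in the small intestine and 0.01 over tuft libraries). With the replicate number as a block, 1 gene in place of 2 was higher in thymus and 0 in place of 1 in trachea.

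Over all genes, small intestine tuft against non-tuft went from 2092 higher and 2235 lower to 785 and 539 with 21 libraries. Counts under voom were 2661 and 2390 in colon against small intestine tuft (885 and 775), 2086 and 2517 in colon against non-tuft (895 and 664), 5515 and 4094 in thymus against non-tuft (3488 and 2097), 3706 and 2949 in small intestine against the other tuft tissues (1991 and 1478), and 1852 and 1547 in trachea against them (3436 and 2711). In gall bladder against them 1744 lower became 607 with voom. DESeq2 changed the split of higher and lower genes against the other tuft tissues from 2521 and 1744 to 2455 and 3430 in gall bladder, from 2122 and 1148 to 2114 and 1905 in colon and from 1991 and 1478 to 2008 and 2513 in small intestine. Limiting promoters to the 250 bases before the start gave CHR letters in 8 in place of 12 of 16 mitosis windows and the E2F core in 6 in place of 8 of 14 replication windows. Levels under about 1 CPM, common in gall bladder and trachea, rest on few counts from few cells.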

Other observations

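Of 16 markers of crypt stem and progenitor cells, 9 were lower and 2 higher in small intestine tuft than in non-tuft cells (13.9% and 13.0% of all genes). Lgr5 and Olfm4 are named here, a choice made after their values were seen. Lgr5 was not among the 2 higher markers, since its difference was under the 2-fold minimum. The median change of the 16 was -1.08. Lgr5, a receptor of crypt stem cells, was at 47.7, 33.1 and 41.9 CPM in non-tuft and 54.5, 57.6 and 50.9 CPM in tuft libraries, while Olfm4, a secreted crypt product, was at 626, 502 and 694 against 53.9, 93.3 and 91.7 CPM. In the thymus 7 of 19 inhibitors and cell cycle exit genes were higher and 1 was lower than the mean of the other tuft tissues, among them Cdkn2b (2.99 ± 0.57, adjusted p = 3.27e-04 by edgeR's quasi-likelihood test); 26.8% of all genes were higher there. Mycn, a driver of growth and division, was also higher in thymus (5.73 ± 1.14, adjusted p = 6.7e-04).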
